A study of Mus musculus with 8 samples.

Results

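The chemokine ligands are small secreted proteins that direct the movement of leukocytes through G protein-coupled receptors. They were taken here as every protein-coding gene of the count table whose mouse symbol begins with Ccl or Cxcl followed by a number, together with Xcl1 and Cx3cl1. The rule found 44 gene identifiers of 39 symbols among the 52636 identifiers of the table, with symbols and gene types from GENCODE M21. Of these, 37 lay on chromosomes and 7 on unplaced scaffolds that carry further copies of Ccl19, Ccl21 and Ccl27. Cxcl11, annotated as a polymorphic pseudogene, was not taken in. RNA sequencing had been run on spleens of C57BL/6 mice aged 6 weeks, in 4 groups of 2 libraries. Mutant mice had the Lmna allele R527C, a change in the nuclear lamina proteins lamin A and C, and were sampled 7 days after 4 Gy (MUT D7) or unirradiated at day 0 (MUT D0). Wild-type mice were sampled 7 days after 4 Gy (WT D7) or unirradiated at day 0 (WT D0). The labels give no zygosity, sex, litter or dose rate. They do not say whether a library is 1 animal, so p-values measure the spread between these libraries. The study asked how the mutation bears on senescence, with and without irradiation.

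Inflammatory chemokines are made on demand by macrophages, stromal and endothelial cells after injury or cytokine exposure, and bring in monocytes, granulocytes and effector lymphocytes. Homeostatic lymphoid chemokines are made constantly by stromal cells of lymphoid organs: in the spleen CXCL13 draws B cells into follicles, CCL19 and CCL21 draw T cells and dendritic cells into the periarteriolar sheath, and CXCL12 holds blood progenitors and plasma cells in their niches. Induction of many inflammatory ligands runs through NF-kappaB and interferon signalling, and CXCL13, CCL19 and CCL21 depend on lymphotoxin signalling in stromal cells.

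By role, 16 identifiers were inflammatory, 11 homeostatic lymphoid and 17 neither. After a filter on low counts 30 could be tested: 14 of 16 inflammatory, 6 of 11 homeostatic lymphoid and 10 of 17 other ligands. Of the other 14, 6 had no read in any library, which allows at most 0.131 to 0.35 CPM (read counts relative to the scaled library size) at 3 counts a library. The remaining 8 never exceeded 6 reads, and among them are Ccl20, the CCR6 ligand, and Cxcl3, a CXCR2 ligand. Of the 30, 23 reached the level of the filter in unirradiated libraries alone. The other 7 (Ccl1, Ccl7, Ccl17, Ccl19, Cxcl2, Cxcl14 and the chromosomal copy of Ccl21a) reached it only through irradiated ones, so counts and medians over the tested ligands are given as descriptions.

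The promoters of 4 abundant ligands are shown because they set a pair of inducible inflammatory genes beside a pair of homeostatic ones. Sequences are the 250 bases before the RefSeq transcription start, build GRCm38.p6, written 5′ to 3′ on the gene's strand. They are Cxcl9 at chr5:92328080-92328329 (minus strand), Cxcl10 at chr5:92348890-92349139 (minus strand), Cxcl13 at chr5:95956689-95956938 (plus strand) and Cxcl12 at chr6:117168285-117168534 (plus strand). Capitals mark CG dinucleotides, the sites of CpG methylation.
Cxcl9: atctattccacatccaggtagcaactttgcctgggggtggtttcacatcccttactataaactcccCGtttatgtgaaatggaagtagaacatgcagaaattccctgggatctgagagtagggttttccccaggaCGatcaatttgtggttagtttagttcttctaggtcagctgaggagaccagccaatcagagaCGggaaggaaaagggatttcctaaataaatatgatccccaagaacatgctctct
Cxcl10: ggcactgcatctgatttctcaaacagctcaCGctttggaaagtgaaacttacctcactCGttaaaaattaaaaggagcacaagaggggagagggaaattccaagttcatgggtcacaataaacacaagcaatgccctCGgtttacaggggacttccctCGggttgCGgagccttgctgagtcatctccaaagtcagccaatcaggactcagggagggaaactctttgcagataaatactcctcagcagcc
Cxcl13: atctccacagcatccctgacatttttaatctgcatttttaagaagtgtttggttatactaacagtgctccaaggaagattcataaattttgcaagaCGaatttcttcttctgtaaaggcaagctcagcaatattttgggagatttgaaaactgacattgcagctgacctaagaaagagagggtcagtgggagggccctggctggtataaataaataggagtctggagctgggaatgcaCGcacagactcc
Cxcl12: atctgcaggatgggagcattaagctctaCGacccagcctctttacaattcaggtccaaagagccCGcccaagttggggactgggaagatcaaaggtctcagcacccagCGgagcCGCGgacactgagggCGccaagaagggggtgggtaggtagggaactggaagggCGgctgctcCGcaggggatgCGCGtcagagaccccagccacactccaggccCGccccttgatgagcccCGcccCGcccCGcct
Cxcl12 held 14 CG dinucleotides at 64.4% G+C, Cxcl10 held 5 at 48%, Cxcl9 held 3 at 44.4% and Cxcl13 held 2 at 42%. The homeostatic pair thus lay at both ends of the 4. Over the 27 ligand symbols with windows in the RefSeq table the median was 4 CG dinucleotides, against 6 over all 32851 windows. It was 3 over 9 inflammatory windows and 9 over 7 homeostatic ones, with ranges of 1 to 10 and 0 to 45 that overlapped. These counts describe the letters of the windows and are no measure of methylation or binding.

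Several facts of the libraries touch every result below. Total counts were 12100784 to 19455470 per library. The irradiated mutant libraries differed from each other far more than other replicates: 32.6% of tested genes differed over 2-fold between them, against 15.6% in WT D7, 0.6% in MUT D0 and 1.2% in WT D0. For these shares 1 CPM was added to each value, which hides some differences in genes at low levels. Summed levels of erythroid markers were 155637 and 12866 CPM in MUT D7 replicates 1 and 2, 56781 and 68285 CPM in WT D7, and 18778 to 42346 CPM unirradiated. Xist was at 1029 to 1776 CPM in the 4 irradiated libraries and at most 0.262 CPM in the unirradiated ones, and the Y-linked genes went the other way. Irradiation and that sex-linked pattern cannot be told apart here. The spleen transcription factor genes Tlx1, Nkx2-5 and Spic had reads in all 8 libraries. In bulk tissue, fewer cells of a type and less RNA per cell cannot be told apart.

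MUT D7 replicate 2 stood apart in the chemokine ligands. It was above replicate 1 for 28 of the 30 tested ligands, against 53.8% of all tested genes, and was the highest of the 8 libraries for 25 of 30, against 3287 of all 17327. It exceeded replicate 1 over 4-fold for 21 ligands, against 11.6% of all genes. Ccl24 and Ccl25 alone were higher in replicate 1. Summed over all ligands, levels were 868 and 2845 CPM in MUT D7, 761 and 1315 CPM in WT D7, 700 and 644 CPM in MUT D0, and 558 and 736 CPM in WT D0. Replicates differed over 2-fold for 25 of 30 ligands in MUT D7, 7 in WT D7, 3 in MUT D0 and 4 in WT D0.

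Neighbouring genes shared that difference. On chromosome 11 the monocyte chemoattractant cluster (6 genes from Ccl2 to Ccl1, 82035571 to 82305690, mm10) summed to 5.26 and 84.1 CPM in MUT D7, a ratio of 16.0, and to 9.55 and 9.18 CPM in WT D7, a ratio of 0.961. The macrophage inflammatory protein cluster on the same chromosome (5 genes from Ccl5 to Ccl4, 83525778 to 83664683) summed to 80.6 and 421 CPM in MUT D7 and to 103 and 152 CPM in WT D7. Cxcl9 and Cxcl10, neighbours on chromosome 5, summed to 47.9 and 665 CPM in MUT D7 and to 139 and 128 CPM in WT D7. The replicate ratio was thus above 5 in all of these loci in MUT D7 and between 0.916 and 1.47 in WT D7. Other loci lay outside those ranges. The ratio was 4.87 in MUT D7 and 1.77 in WT D7 for the CXCR2 ligand cluster on chromosome 5. For the chromosome 8 cluster it was 4.75 and 1.51, and for the Ccl21 copies 4.57 and 3.52. The Ccl19 copies with 2 pseudogenes had 7.06 in MUT D7 and 0.462 in WT D7.

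**Figure D1:**
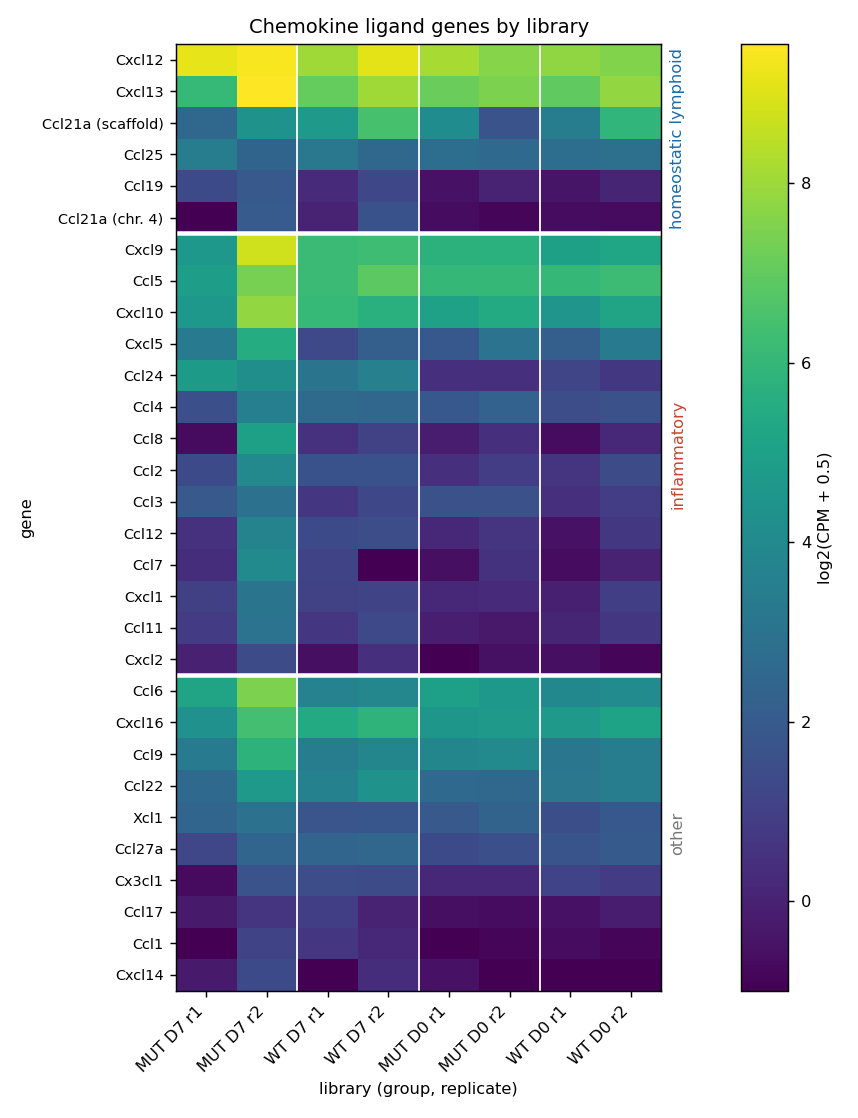
Level of each tested ligand (rows, by role) in each of the 8 libraries (columns) as log2(CPM + 0.5), from dark (low) to yellow (high). MUT D7 replicate 2 is the highest library for 25 of 30 ligands.

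Which ligands made up the repertoire was compared per length, as shares of summed TPM (length-normalised transcript abundance, computed from the counts and exon lengths). Homeostatic lymphoid ligands held 52.2 and 50.1% in MUT D7, 51.5 and 67.3% in WT D7, 56.8 and 53.2% in MUT D0, and 56.2 and 69.5% in WT D0. Inflammatory ligands held 32.5 and 38.7% in MUT D7, 38.5 and 26.1% in WT D7, 32 and 35.5% in MUT D0, and 33.6 and 23.6% in WT D0. Homeostatic ligands were therefore above 50% of the total in all 8 libraries at the annotated lengths. Ccl21a was counted mainly on a scaffold copy annotated with 402 exon bases, against 870 for its chromosomal copy. A longer length would lower its TPM, so homeostatic shares close to 50% depend on that annotation. Shares at other lengths were not computed. Their share was lower in MUT D7 than in MUT D0 without overlap, at a gap of the nearest libraries smaller than the gap between replicates, and overlapped in WT D7 and WT D0 and between genotypes. The inflammatory share overlapped in all 4 comparisons. The ratio of inflammatory to homeostatic TPM was 0.623 and 0.773 in MUT D7, 0.748 and 0.388 in WT D7, 0.563 and 0.668 in MUT D0, and 0.598 and 0.339 in WT D0. Cxcl13 alone held 20.6 to 43.9% of the repertoire over the libraries, Ccl5 11 to 23.1% and Ccl21a 1.99 to 29.1%. Cxcl12 held 25.3% in MUT D7 replicate 1 and 4.29 to 9.95% elsewhere. Ccl24 reached 7.39% in MUT D7 replicate 1.

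**Figure D2:**
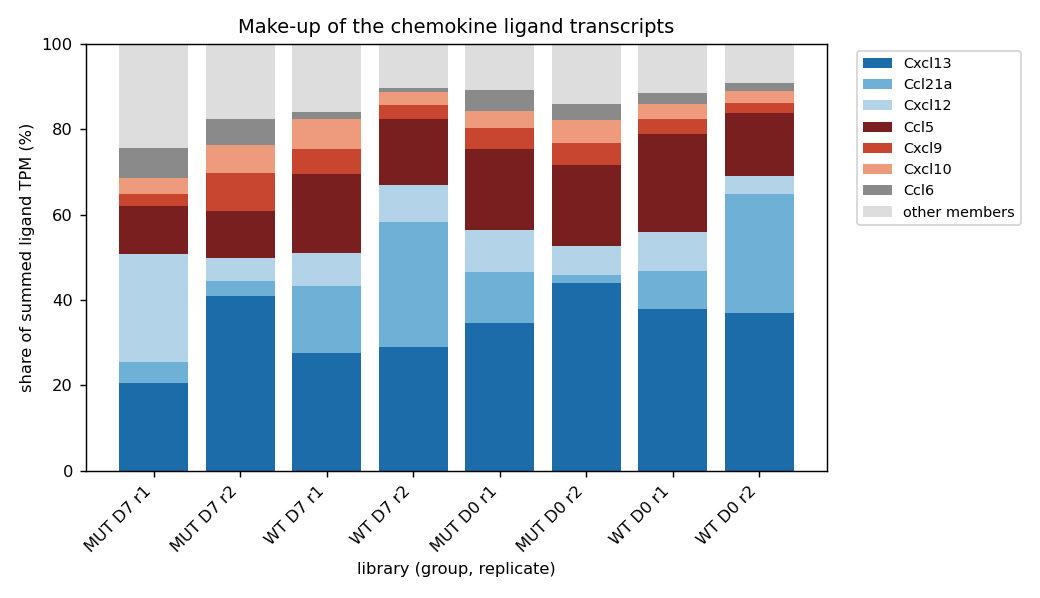
Share of summed chemokine ligand TPM (vertical axis, percent) held by 7 leading ligands and the other members in each of the 8 libraries, with homeostatic ligands in blue and inflammatory ones in red. Cxcl13 holds 20.6 to 43.9%, and Cxcl12 stands out at 25.3% in MUT D7 replicate 1.

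Across the tests, 1 of 30 ligands was called at an adjusted p under 0.05 (edgeR quasi-likelihood test, adjusted over 17327 genes). In MUT D7 against MUT D0 Ccl24 rose and no ligand fell, where 0.254% of all genes rose and 0.346% fell. In WT D7 against WT D0 no ligand was called, where 0.0115% of all genes rose and 0.0462% fell. DESeq2 called 1 ligand there, Ccl24, and 6.56% of all genes. It called 9 ligands in MUT D7 against MUT D0, all higher, and 11.3% of all genes. In MUT D7 against WT D7 no ligand was called by edgeR, where 0% of all genes were called in either direction. DESeq2 called 2 (Ccl6 and Cxcl5, both higher) and 0.477% of all genes with an adjusted p. In MUT D0 against WT D0 neither tool called a ligand, and edgeR called 0% and DESeq2 0.354% of all genes. The difference of the irradiation effect between genotypes was called for no ligand by either tool, and edgeR called 0% and DESeq2 0.0231% of all genes.

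At an unadjusted p under 0.05, 15 of 30 ligands passed in MUT D7 against MUT D0, where 22.1% of all genes did. The count was 2 of 30 in WT D7 against WT D0 (17.3% of all), 4 of 30 in MUT D7 against WT D7 (4.02%), 0 of 30 in MUT D0 against WT D0 (2.24%) and 3 of 30 for the difference between genotypes (1.6%). Groups did not overlap in CPM for 13 ligands higher and 0 lower in MUT D7 against MUT D0 (26.9 and 25.7% of all genes), and for 18 higher and 1 lower in WT D7 against WT D0 (29.7 and 27.8%). In MUT D7 against WT D7, 7 were higher and 1 lower without overlap (10.4 and 7.46% of all genes). In MUT D0 against WT D0, 6 were higher and 10 lower (20.8 and 25% of all genes), shares close to those of all genes. These counts include the 7 ligands that passed the filter only through irradiated libraries. Over the other 23, 10 had an unadjusted p under 0.05 (edgeR) in MUT D7 against MUT D0 and 2 in WT D7 against WT D0. Of the same 23, 9 were higher and 0 lower without overlap in the mutant comparison, and 13 higher and 1 lower in the wild-type one.

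The roles were set side by side by the median log2 fold change of their tested members. In MUT D7 against MUT D0 it was 2.87 for inflammatory, 1.37 for homeostatic lymphoid and 1.36 for other ligands, with 0.15 for all genes tested. In WT D7 against WT D0 it was 1.07, 0.86 and 0.71 for the same roles, with 0.09 for all genes. The irradiation comparisons of both genotypes share no library. Over the ligands that reached the filter level unirradiated, the medians were 2.58 for 12 inflammatory and 0.89 for 4 homeostatic ligands in MUT D7 against MUT D0, and 0.95 and 0.43 in WT D7 against WT D0. In these values the inflammatory median was above the homeostatic one in both genotypes. Over all tested members (1.07 and 0.86 in wild type) that order turned with 1 library left out. Without WT D7 replicate 1 the medians were 0.97 for inflammatory and 1.38 for homeostatic ligands, and without WT D0 replicate 2 they were 1.39 and 1.58. These medians with a library left out include the ligands that passed the filter only through irradiated libraries.

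In MUT D7 against WT D7 the median was 1.59 for inflammatory, 0.44 for homeostatic lymphoid and 0.09 for other ligands, with 0.02 for all genes, and 14 of 14 inflammatory ligands were above 0. That rests on 1 library: without MUT D7 replicate 2 the inflammatory median was -0.37 and the homeostatic one -0.60. In MUT D7 against MUT D0 the same omission left medians of 0.30 for inflammatory and -0.18 for homeostatic ligands. In MUT D0 against WT D0 the medians were 0.11, -0.16 and -0.38 for inflammatory, homeostatic and other ligands, with -0.02 for all genes.

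**Figure D3:**
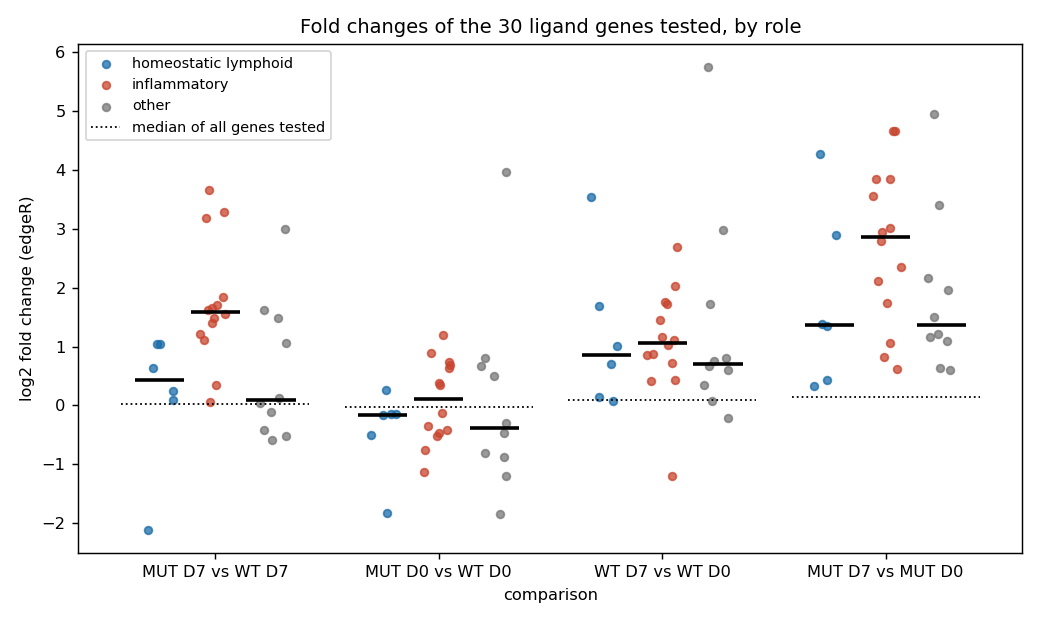
Log2 fold change of each tested ligand (points) by role in the 4 comparisons, with the black bar at the median of the role and the dotted line at the median of all genes tested. The fold of Cxcl14 against WT D0, where it had no read, depends on the fit's prior count. The inflammatory medians are 2.87 in MUT D7 against MUT D0 and 1.07 in WT D7 against WT D0, beside homeostatic medians of 1.37 and 0.86.

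Among the inflammatory ligands, the eotaxins bind CCR3 on eosinophils. Ccl24, eotaxin-2, which macrophages also make (chromosome 5, 135569937 to 135573049, minus strand), had 26.7 and 18.4 CPM in MUT D7, 7.84 and 11.5 CPM in WT D7, 0.872 and 0.884 CPM in MUT D0, and 1.80 and 1.14 CPM in WT D0. Every irradiated library lay above every unirradiated one, and the genotypes did not overlap at either day. Ccl24 rose 25.4-fold in MUT D7 against MUT D0 (log2 fold change 4.67 ± 0.47 SE, adjusted p = 0.0161). In WT D7 against WT D0 its log2 fold change was 2.70 ± 0.44, with an unadjusted p of 0.000278 and an adjusted p of 0.0931 (edgeR). There it was called by DESeq2 (adjusted p = 1.23e-05), and by edgeR without a filter, on the wild-type groups alone (adjusted p = 0.0259) and without either MUT D7 replicate (adjusted p = 0.00696 and 0.00596). Those edgeR settings called 5.35 to 14.2% of all genes. It averaged 22.6 ± 5.92 CPM in MUT D7 and 9.66 ± 2.57 CPM in WT D7 (SD, n = 2 each), a log2 fold change of 1.22 ± 0.40 that was not called (adjusted p = 1, edgeR). The call in mutants was lost without any 1 of the 4 unirradiated libraries, with adjusted p of 0.0559 to 0.178 and log2 fold changes of 4.64 to 4.66. On the mutant groups alone it was lost as well (adjusted p = 0.220, edgeR), and it held without either MUT D7 replicate.

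Ccl11, eotaxin-1, had 1.28 and 7.70 CPM in MUT D7, 1.08 and 2.03 CPM in WT D7, 0.436 and 0.326 CPM in MUT D0, and 0.572 and 1.14 CPM in WT D0. The mutant groups did not overlap and the wild-type groups did. Its log2 fold change was 3.56 ± 0.94 in MUT D7 against MUT D0 and 0.88 ± 0.89 in WT D7 against WT D0, neither called (adjusted p = 0.109 and 0.607, edgeR). In MUT D0 against WT D0 it was -1.13 ± 0.92 (adjusted p = 1). Ccl26, the third eotaxin, had no read. Ccr3 itself, their receptor, had 89.6 and 13.4 CPM in MUT D7, 22.1 and 20.0 CPM in WT D7, 46.5 and 25.1 CPM in MUT D0, and 44.1 and 27.6 CPM in WT D0. Unlike Ccl24 it did not separate irradiated from unirradiated libraries, and both genes were highest in MUT D7 replicate 1.

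Cxcl9 and Cxcl10, whose promoters are printed above, encode interferon-inducible ligands of CXCR3, which draw effector T cells and NK cells. Cxcl9 had 23.9 and 436 CPM in MUT D7, 73.5 and 76.2 CPM in WT D7, 53.7 and 53.3 CPM in MUT D0, and 31.0 and 37.9 CPM in WT D0. The MUT D7 libraries were the lowest and the highest of all 8, while the WT D7 pair lay close together and above both WT D0 libraries. Its log2 fold change was 2.11 ± 1.0 in MUT D7 against MUT D0 and 1.12 ± 0.98 in WT D7 against WT D0 (adjusted p = 0.261 and 0.549, edgeR). Cxcl10 had 23.9 and 229 CPM in MUT D7, 65.9 and 51.4 CPM in WT D7, 32.6 and 42.7 CPM in MUT D0, and 22.4 and 35.5 CPM in WT D0. Here too WT D7 lay above WT D0 without overlap, and the MUT D7 libraries lay on both sides of the MUT D0 pair. Log2 fold changes were 1.75 ± 0.84 in MUT D7 against MUT D0 and 1.02 ± 0.83 in WT D7 against WT D0 (adjusted p = 0.265 and 0.524, edgeR). Without MUT D7 replicate 1 both genes were called higher in MUT D7 against WT D7, where 2.57% of all genes were called. Without MUT D7 replicate 2 Cxcl9 was called lower, where 1.53% of all genes were called, so 1 library decided the direction. Cxcr3 had 5.02 and 36.6 CPM in MUT D7, 8.74 and 13.7 CPM in WT D7, 28.0 and 37.6 CPM in MUT D0, and 30.6 and 33.1 CPM in WT D0.

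The CCR2 ligands recruit inflammatory monocytes. Ccl2, the main monocyte chemoattractant, had 2.10 and 15.2 CPM in MUT D7, 2.70 and 2.65 CPM in WT D7, 0.872 and 1.40 CPM in MUT D0, and 1.06 and 2.21 CPM in WT D0. Irradiated libraries were above unirradiated ones within each genotype without overlap. The fitted log2 fold change was 2.94 ± 0.89 in MUT D7 against MUT D0 and 0.72 ± 0.87 in WT D7 against WT D0, neither called (adjusted p = 0.132 and 0.669, edgeR). Ccl7, Ccl8 and Ccl12, its neighbours, had 0.117 to 0.934 CPM in MUT D7 replicate 1 and 12.6 to 31.3 CPM in replicate 2. The widest gap of these, chosen after the values were seen, was in Ccl8, at 0.117 and 31.3 CPM in MUT D7, 0.901 and 1.59 CPM in WT D7, 0.393 and 0.838 CPM in MUT D0, and 0.132 and 0.632 CPM in WT D0. The lower MUT D7 value is below the level of 3 counts in that library, 0.35 CPM.

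**Figure D4:**
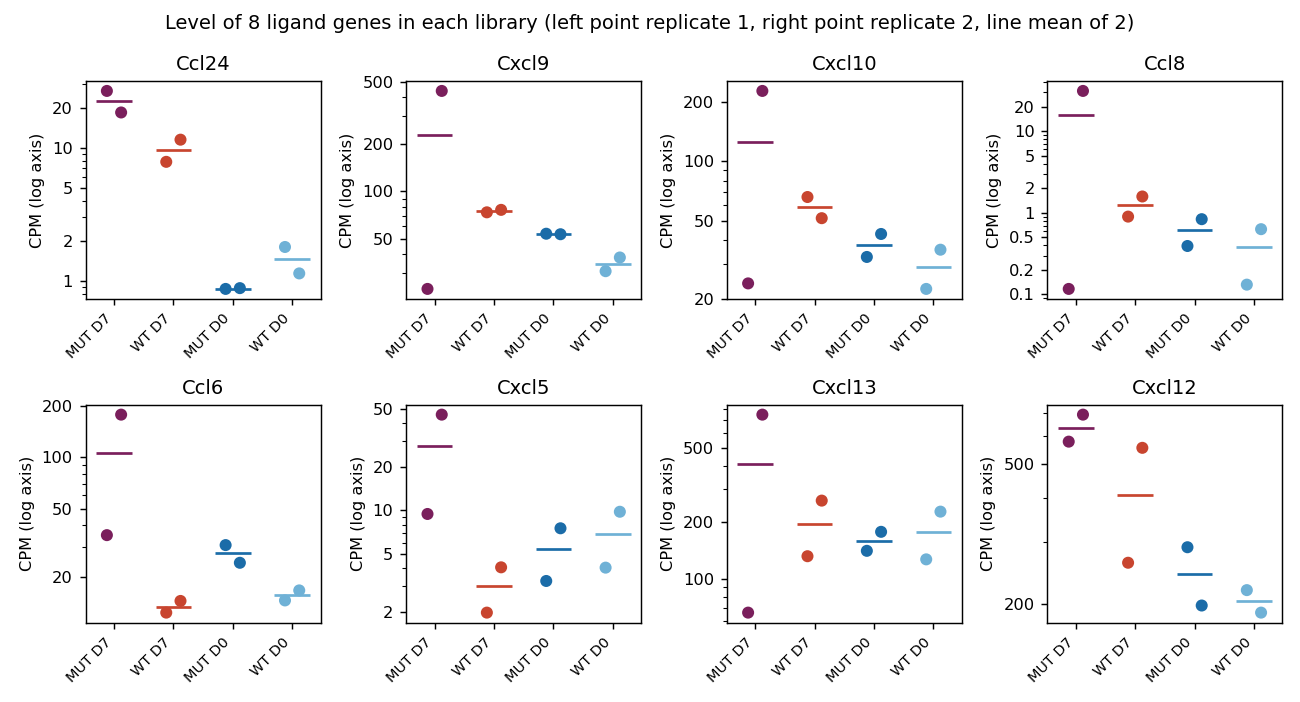
CPM (log axis) of 8 ligand genes in MUT D7, WT D7, MUT D0 and WT D0, with 1 point per library (replicate 1 left, replicate 2 right) and a line at the mean of 2. The Ccl24 points of irradiated libraries (7.84 to 26.7 CPM) lie above all unirradiated ones, and the MUT D7 points of Cxcl9, Ccl8 and Cxcl13 lie on both sides of all other points.

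Ccl3, Ccl4 and Ccl5 attract T cells, NK cells and macrophages. Ccl5, RANTES, had 30 and 168 CPM in MUT D7, 73.6 and 117 CPM in WT D7, 64.6 and 64.1 CPM in MUT D0, and 64.8 and 75.5 CPM in WT D0. The irradiated groups overlapped the unirradiated ones, and MUT D7 replicate 1 was the lowest of the 8. The log2 fold change of Ccl5 was 0.62 ± 0.67 in MUT D7 against MUT D0 and 0.44 ± 0.67 in WT D7 against WT D0 (adjusted p = 0.599 and 0.739, edgeR). Ccl3 had 3.39 and 7.36 CPM in MUT D7, 1.08 and 1.94 CPM in WT D7, 2.57 and 2.61 CPM in MUT D0, and 0.879 and 1.39 CPM in WT D0. It was higher in mutants than in wild type without overlap at both days, by 1.84 ± 0.60 (log2) at day 7 and 1.19 ± 0.59 at day 0, neither called (adjusted p = 1 for both, edgeR). Ccl4 had 2.45 and 11.1 CPM in MUT D7, 5.77 and 5.03 CPM in WT D7, 3.27 and 4.51 CPM in MUT D0, and 2.29 and 2.53 CPM in WT D0. Its genotypes overlapped at day 7 and did not at day 0, where its log2 fold change was 0.69 ± 0.66.

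The CXCR2 ligands bring in neutrophils. Cxcl5 had 9.46 and 45.7 CPM in MUT D7, 1.98 and 4.06 CPM in WT D7, 3.27 and 7.54 CPM in MUT D0, and 4.04 and 9.80 CPM in WT D0. Both MUT D7 libraries were above both WT D7 and both MUT D0 libraries, and the lower of them was below the higher WT D0 library. Its log2 fold change was 3.19 ± 0.87 in MUT D7 against WT D7 and 2.36 ± 0.83 in MUT D7 against MUT D0 (adjusted p = 0.986 and 0.166, edgeR), and the first was called by DESeq2 (adjusted p = 0.0331). In WT D7 against WT D0 it was -1.19 ± 0.83, and the difference between the genotypes in the irradiation effect was 3.54 ± 1.17 (unadjusted p = 0.0167, adjusted p = 1, edgeR). Levels of Cxcl1, the mouse counterpart of the human GRO chemokines, were 1.52 and 7.81 CPM in MUT D7, 1.62 and 1.77 CPM in WT D7, 0.654 and 0.698 CPM in MUT D0, and 0.440 and 1.45 CPM in WT D0. Irradiated libraries were higher in each genotype without overlap, by 2.80 ± 0.89 in mutants and 0.86 ± 0.88 in wild type (log2, adjusted p = 0.141 and 0.610, edgeR). Cxcl2 had only 4 and 41 reads in MUT D7, 2 and 10 in WT D7, 0 and 4 in MUT D0, and 4 and 1 in WT D0, too few for a fold change. Cxcr2 had 9.46 and 13.3 CPM in MUT D7, 5.59 and 7.51 CPM in WT D7, 35.0 and 39.2 CPM in MUT D0, and 9.72 and 8.85 CPM in WT D0. The summed level of 12 granulocyte markers was 223 and 182 CPM in MUT D7, 215 and 92.7 CPM in WT D7, 5805 and 11364 CPM in MUT D0, and 1690 and 1447 CPM in WT D0. All 12 markers had negative fold changes in MUT D7 against MUT D0, and 9 of them were called lower by edgeR, where 0.346% of all genes were. Their part in the CXCR2 ligand values was not tested.

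Among the homeostatic lymphoid ligands, Cxcl12, the CXCR4 ligand of the stromal niche, had 579 and 691 CPM in MUT D7, 262 and 556 CPM in WT D7, 290 and 198 CPM in MUT D0, and 219 and 189 CPM in WT D0. Irradiated libraries were above unirradiated ones within each genotype, and MUT D7 above WT D7, without overlap. Its log2 fold change was 1.38 ± 0.44 in MUT D7 against MUT D0, 1.01 ± 0.43 in WT D7 against WT D0 and 0.63 ± 0.43 in MUT D7 against WT D7 (adjusted p = 0.140, 0.289 and 1, edgeR), none called. It was the ligand gene with the most reads in 6 of the 8 libraries. Its receptor gene Cxcr4 had 225 and 98.8 CPM in MUT D7, 262 and 185 CPM in WT D7, 76.2 and 80.8 CPM in MUT D0, and 82.6 and 71.7 CPM in WT D0, so ligand and receptor were both above their unirradiated levels in all 4 irradiated libraries except that Cxcl12 in WT D7 replicate 1 was below MUT D0 replicate 1.

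Cxcl13, the CXCR5 ligand of B cell follicles, had 66.1 and 749 CPM in MUT D7, 132 and 261 CPM in WT D7, 141 and 178 CPM in MUT D0, and 127 and 228 CPM in WT D0. All groups overlapped, and the MUT D7 pair held both the lowest and the highest value. The fitted log2 fold change was 1.35 ± 0.93 in MUT D7 against MUT D0 and 0.15 ± 0.91 in WT D7 against WT D0 (adjusted p = 0.413 and 0.943, edgeR). Cxcr5 had 2.45 and 43.3 CPM in MUT D7, 26.6 and 45.2 CPM in WT D7, 101 and 100 CPM in MUT D0, and 147 and 137 CPM in WT D0. The 10 B cell markers summed to 89.2 and 1217 CPM in MUT D7, 779 and 1555 CPM in WT D7, 2509 and 2561 CPM in MUT D0, and 3865 and 4823 CPM in WT D0. Receptor and B cell markers were thus lower in every irradiated library than in every unirradiated one, while the ligand overlapped.

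The CCR7 ligands guide T cells and mature dendritic cells. Ccl19 had 2.10 and 3.38 CPM in MUT D7, 0.721 and 1.94 CPM in WT D7, 0.218 and 0.512 CPM in MUT D0, and 0.264 and 0.569 CPM in WT D0. All irradiated libraries were above all unirradiated ones, at 5 to 11 reads unirradiated, and its log2 fold change was 2.90 ± 0.81 in MUT D7 against MUT D0 and 1.69 ± 0.82 in WT D7 against WT D0 (adjusted p = 0.117 and 0.324, edgeR). Ccl21a was counted mainly on an unplaced scaffold copy, with 5.49 and 21.0 CPM in MUT D7, 25.7 and 90 CPM in WT D7, 17.1 and 2.79 CPM in MUT D0, and 10.4 and 60.2 CPM in WT D0. Its replicates differed more than its groups, apart from MUT D7 lying below WT D7 without overlap (log2 fold change -2.11 ± 1.14, adjusted p = 1, edgeR). The chromosomal copy of Ccl21a had 0 and 65 reads in MUT D7, 6 and 30 in WT D7, 3 and 1 in MUT D0, and 3 and 2 in WT D0, and Ccl21b and Ccl21c did not pass the filter, with at most 6 reads in a library for any copy. The copies of Ccl19 and Ccl21 are nearly identical, and no source used here says how reads matching several copies were counted, so levels per copy are uncertain. Ccr7 had 6.31 and 72.2 CPM in MUT D7, 67.6 and 54.9 CPM in WT D7, 68.4 and 65.3 CPM in MUT D0, and 99 and 111 CPM in WT D0. Ccl25, the CCR9 ligand of thymus and gut, stayed between 4.76 and 10.6 CPM in all 8 libraries.

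Of the other ligands, the neighbours Ccl6 and Ccl9 are CCR1 ligands of myeloid cells, known from rodents. Ccl6 had 35.0 and 178 CPM in MUT D7, 12.3 and 14.4 CPM in WT D7, 30.6 and 24.1 CPM in MUT D0, and 14.5 and 16.6 CPM in WT D0. Mutants were above wild type without overlap at both days, by 3.0 ± 0.67 (log2) at day 7 and 0.81 ± 0.63 at day 0. Neither was called by edgeR (adjusted p = 0.949 and 1), and the first was called by DESeq2 (adjusted p = 0.00483). Its log2 fold change was 1.96 ± 0.64 in MUT D7 against MUT D0 and -0.22 ± 0.63 in WT D7 against WT D0 (adjusted p = 0.147 and 0.867, edgeR). Ccl9 ranged from 9.69 to 56.7 CPM in MUT D7, 10.3 to 13.7 in WT D7, 13.7 to 16.1 in MUT D0 and 8.44 to 10.3 in WT D0, and its genotypes overlapped at day 7. The 13 monocyte and macrophage markers summed to 2400 and 4448 CPM in MUT D7, 1218 and 2303 CPM in WT D7, 2998 and 3161 CPM in MUT D0, and 2329 and 2661 CPM in WT D0. That sum was also higher in mutants at both days without overlap. Lyz2 alone held 1301 to 1807 CPM of it at day 0. By marker, all 13 were higher in mutants at day 7 (median log2 fold change 1.13), while 9 were higher and 4 lower at day 0 (median 0.24). The part of these markers in the Ccl6 and Ccl3 values was not tested.

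Ccl22, the CCR4 ligand made by dendritic cells, had 5.61 and 25 CPM in MUT D7, 12.1 and 21.2 CPM in WT D7, 5.67 and 5.26 CPM in MUT D0, and 8.48 and 10.6 CPM in WT D0. At day 0 it was lower in mutants without overlap (log2 fold change -0.80 ± 0.64, adjusted p = 1, edgeR). Cx3cl1, the membrane-anchored ligand fractalkine, had 0.117 and 2.77 CPM in MUT D7, 2.34 and 2.21 CPM in WT D7, 0.654 and 0.651 CPM in MUT D0, and 1.67 and 1.33 CPM in WT D0. It too was lower in mutants at day 0 without overlap (-1.19 ± 0.99, adjusted p = 1, edgeR) and overlapped at day 7. Xcl1, the lymphotactin of T and NK cells, ranged from 2.37 to 7.47 CPM and was higher in mutants than in wild type without overlap at both days. Its log2 fold change was 1.06 ± 0.46 in MUT D7 against WT D7 and 0.50 ± 0.45 in MUT D0 against WT D0, neither called by edgeR. Cxcl16, the ligand of CXCR6, ranged from 19.9 to 84.0 CPM. It was higher in WT D7 than in WT D0 without overlap (log2 fold change 0.75 ± 0.58, adjusted p = 0.5, edgeR), and the mutant groups overlapped.

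The 18 chemokine receptor genes for these ligands were all tested and none was called in any comparison. Their median log2 fold change was -0.21 in MUT D7 against MUT D0, -0.48 in WT D7 against WT D0, 0.38 in MUT D7 against WT D7 and 0.09 in MUT D0 against WT D0. None of 5 atypical receptors was called either, with medians of 0.16, 0.15, 0.06 and 0.17 in the same order. Of 10 genes of lymphotoxin and noncanonical NF-kappaB signalling none was called, with medians of -0.69, -0.71, -0.21 and -0.16. Of 12 genes of the interferon-gamma axis none was called, with medians of -0.09, -0.13, 0.15 and 0.00. Of 12 tested genes of NF-kappaB induction and feedback, 1 rose in MUT D7 against MUT D0 and none was called elsewhere. That gene was Il1r1, an interleukin-1 receptor, at 66.1 and 73.2 CPM in MUT D7, 38.8 and 50.2 CPM in WT D7, 18.5 and 17.8 CPM in MUT D0, and 21.2 and 19.7 CPM in WT D0 (log2 fold change 1.94, adjusted p = 0.0317, edgeR, in mutants). Both platelet chemokine genes, whose symbols fall outside the rule, had negative fold changes under irradiation, and Ppbp fell by 3.37 on the log2 scale in MUT D7 against MUT D0 (adjusted p = 0.0270, edgeR). It was not called in WT D7 against WT D0 (-3.03, adjusted p = 0.0729, edgeR).

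Marker sums of some spleen cell types and of fat were also highest in MUT D7 replicate 2, as most ligands were. The 8 tested adipose markers summed to 124 and 1402 CPM in MUT D7, 26.5 and 162 CPM in WT D7, 28.5 and 88.8 CPM in MUT D0, and 37.5 and 186 CPM in WT D0. The 13 stromal reticular markers summed to 328 and 1301 CPM in MUT D7, 359 and 709 CPM in WT D7, 275 and 298 CPM in MUT D0, and 398 and 470 CPM in WT D0. The 10 T cell markers summed to 169 and 1275 CPM in MUT D7, 542 and 971 CPM in WT D7, 652 and 605 CPM in MUT D0, and 828 and 1055 CPM in WT D0. In all 3 lists MUT D7 replicate 2 was the highest of the 8 libraries, as it was for most ligands. It was also the highest for the monocyte and macrophage, NK, follicular dendritic and mesothelial marker sums. By the mean log2(CPM + 0.5) of its 8 markers, the follicular dendritic list was instead highest in WT D0 replicate 2, at 6.25 against 6.18 in MUT D7 replicate 2. MUT D7 replicate 2 was not the highest for the B cell, plasma cell, dendritic, endothelial, granulocyte, platelet, erythroid and hepatocyte marker sums. The part of these markers in the ligand values was not tested. The hepatocyte marker sum was 503 and 86.9 CPM in MUT D7, 102 and 119 CPM in WT D7 and 7.55 to 9.68 CPM unirradiated, higher in every irradiated library, as Ccl24 was, with replicate 1 of MUT D7 the highest for both. Its part in the Ccl24 values was not tested.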

How the data were processed

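RNA was measured in 8 spleen libraries. Per the submitters' processing notes the authors used Trim Galore, Subread and featureCounts, with the builds mm10 and hg38 named. No source used here gives versions, strandedness or the handling of multi-mapping reads. The authors deposited whole-number read counts per gene, not normalised. Groups came from the sample titles. A growth protocol in the labels describes cultured human cells and was not used. Of 52636 gene identifiers, 52489 had a symbol in GENCODE M21, and 0 lines named no gene.

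Counts of all genes were fitted together in edgeR 4.0.16 (R 4.3.3) with TMM scaling, its expression filter (minimum count 10, minimum total 15) and the quasi-likelihood test, adjusted by Benjamini-Hochberg over 17327 genes at 0.05. CPM use TMM-scaled library sizes and fold changes are log2. SE is the fold change over the root of F. Residual degrees of freedom were 4. Limits of 3 counts cover counting error only. The fitting was tested on simulated data.

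Per-library values were given for called ligands, for 10 listed ligands, and per comparison for the 3 highest and 3 lowest fold changes without overlap at a group mean of at least 1 CPM. Members and lists were chosen with earlier results of these data known. Alternatives were DESeq2 1.42.0, RLE scaling, no filter, fits on the compared groups alone, a replicate block, each library left out, and, chosen after seeing the data, library totals without scaling factors.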

Additional observations from a re-analysis of the deposited data

Results flagged for a closer look

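The genotype effect on Ccl24 ran in opposite directions at the 2 days with no overlap of the groups: a log2 fold change of 1.22 in MUT D7 against WT D7 and -0.75 in MUT D0 against WT D0. The test of the difference gave 1.97 ± 0.60 (SE, log2), with an unadjusted p of 0.0111 and an adjusted p of 1 in edgeR, so it did not pass. The irradiation effect on Ccl6 likewise had opposite signs in the genotypes with no overlap. It was 1.96 ± 0.64 in MUT D7 against MUT D0 (35.0 and 178 against 30.6 and 24.1 CPM). In WT D7 against WT D0 it was -0.22 ± 0.63 (12.3 and 14.4 against 14.5 and 16.6 CPM), a change smaller than its SE. The test of the difference between genotypes gave 2.19 ± 0.89, with an unadjusted p of 0.0407 and an adjusted p of 1 in edgeR, and did not pass either.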

How the results depend on the processing

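Counts of called ligands depended on the settings. With no low-count filter, on 38 ligands tested, they were 15 in MUT D7 against MUT D0, 2 in WT D7 against WT D0, 6 in MUT D7 against WT D7, 1 in MUT D0 against WT D0 and 1 for the difference between genotypes, where 7.27, 5.35, 0.569, 0.484 and 0.176% of all genes were called in the same order. DESeq2 called 9, 2 and 1 in MUT D7 against MUT D0, MUT D7 against WT D7 and WT D7 against WT D0, and left 2016 and 672 adjusted p-values empty in the comparisons of genotypes at day 7 and day 0. Fitted on the compared groups alone, 0 were called in MUT D7 against MUT D0 (0% of all genes) and 1 in WT D7 against WT D0 (6.96%). Between genotypes those fits called 0 of 29 tested ligands in MUT D7 against WT D7 (0% of all genes). In MUT D0 against WT D0 they called 0 of 25 tested ligands, where 2.81% of all genes were called against 0% in the main fit. In the main fit all groups shared 1 estimate of the spread, so the difference between the MUT D7 replicates entered the p-values of every comparison. The cause of the shifts between settings was not tested.

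With each library left out in turn, the count ranged from 0 to 18 in MUT D7 against MUT D0, 0 to 8 in MUT D7 against WT D7, 0 to 3 in WT D7 against WT D0, and was 0 throughout for the other comparisons. The 18, the 8 and the 3 came without MUT D7 replicate 1, where 6.89, 2.57 and 13% of all genes were called. Without MUT D7 replicate 2, 3 were called in MUT D7 against MUT D0 (Ccl24 higher, Ccl5 and Cxcl9 lower), where 24.6% of all genes were called. The inflammatory median ranged from 0.30 to 3.57 in MUT D7 against MUT D0, -0.37 to 2.33 in MUT D7 against WT D7, 0.72 to 1.39 in WT D7 against WT D0, -0.31 to 0.68 in MUT D0 against WT D0, and -0.58 to 2.35 for the difference between genotypes. The homeostatic median ranged from -0.18 to 1.96, -0.60 to 1.45, 0.36 to 1.58, -0.49 to 0.04 and -0.67 to 1.40 in the same order. Where 1 library was left in a group it was assumed to vary like the others.

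Library totals without scaling factors shifted the median of all genes by -0.39 in MUT D7 against MUT D0 and -0.34 in WT D7 against WT D0, where the inflammatory median became 0.73. Ccl24 was then 4.24 in MUT D7 against MUT D0 (adjusted p = 0.0250). RLE scaling changed no count of called ligands.

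The labels do not say that a replicate number marks a shared litter, batch or day, so the numbers were not used to pair libraries. Across genes, the differences between replicates correlated at 0.108 to 0.578 in 5 of the 6 group pairs and at 0.047 in WT D7 and MUT D0. With a replicate block 1 ligand was called in MUT D7 against MUT D0 and 0 in the other comparisons, and over all genes 253 against 104 without the block in MUT D7 against MUT D0 and 16 against 10 in WT D7 against WT D0. Ccl24, the ligand called by edgeR, kept its sign in every alternative.

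Depth limits the ligands under about 1 CPM, among them Ccl19, Ccl21a on the chromosome, Cxcl2, Ccl7 and Ccl8 in unirradiated spleens.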

Other observations

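Cxcl11, the third CXCR3 ligand and a polymorphic pseudogene in the annotation, had 0 and 3.71 CPM in MUT D7, 0.27 and 0.795 CPM in WT D7, 0.349 and 0.605 CPM in MUT D0, and 0.176 and 0.19 CPM in WT D0. The pseudogene Ccl19-ps3 had 0.467 and 20.9 CPM in MUT D7, 8.65 and 2.12 CPM in WT D7, 1.57 and 1.54 CPM in MUT D0, and 0.528 and 3.16 CPM in WT D0, more than Ccl19 itself in 7 of the 8 libraries.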
